A study of Mus musculus with 6 samples.

Results

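The genes described here carry glucose through glycolysis and answer low oxygen. They are 32 genes taken by symbol: glucose and lactate transporters, an enzyme for each glycolytic step, the regulators Hif1a, Egln1 and Egln3, and hypoxia-responsive genes. All 32 were found among the 18478 genes of the deposited count table. No threshold on a measured value chose the members, but the list was drawn up with earlier results of these data known. The libraries came from group 2 innate lymphoid cells (ILC2s), tissue lymphocytes that lack antigen receptors and secrete IL-5 and IL-13. ILC2s were sorted from lungs of 6-week-old BALB/c mice, in 3 WT and 3 CB2 KO libraries. CB2 is a cannabinoid receptor encoded by Cnr2. All 6 libraries share their treatment: 3 intranasal doses of 1 µg recombinant IL-33 before isolation, then culture for 24 h in 10 ng/mL each of IL-2 and IL-7. The labels do not state how the CB2 allele was made, or whether replicates came from separate mice. The p-values below therefore reflect the scatter among these libraries alone, and that scatter may be technical. The question of the series is how CB2 affects the transcriptome of these cells.

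Glycolysis splits glucose into pyruvate in the cytosol. Its preparatory steps spend ATP to make triose phosphates, and its payoff steps return ATP and NADH. Lactate dehydrogenase turns pyruvate into lactate, which monocarboxylate transporters carry out of the cell. HIF-1, made of HIF-1α (Hif1a) and a constant partner, binds a short DNA core and raises many of these genes. In oxygen, prolyl hydroxylases (the Egln genes) mark HIF-1α for destruction, so Hif1a mRNA alone does not report its activity. Activated lymphocytes are known for high glycolysis with lactate export, also where oxygen is present.

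Libraries held 17141698 to 21621008 estimated counts. On the first principal component, which held 37.6% of the variance, the library labelled CB2 KO replicate 1 lay far from all others. It also had the fewest genes with a count (15005, against 15640 to 16514). Cnr2, the targeted gene, was at 9.32, 17.4 and 15.8 CPM (counts scaled to library size) in WT replicates 1 to 3 and at 9.24, 1.6 and 3.84 CPM in CB2 KO. Its log2 difference of -1.52 (SE 0.56) missed the threshold of 0.05 (edgeR's quasi-likelihood test, Benjamini-Hochberg adjusted p = 0.514), and it was -2.42 without CB2 KO replicate 1, which was level with the lowest WT library. All 12 listed ILC2 markers were in the table, and their summed level, most of it Il5, was 12900 to 14300 CPM in WT and 13400 to 15800 CPM in CB2 KO. Of these 12 markers 9 had negative log2 differences, 6 of them with every CB2 KO library below every WT library. Il5 had every CB2 KO library higher, and no ILC2 marker passed the edgeR test (5 at an unadjusted p under 0.05). Of all tested genes, 7.2% lay entirely lower in CB2 KO and 6.91% entirely higher. In the edgeR test 8.6% of them had an unadjusted p under 0.05, and 0.107% passed. Of 8 listed macrophage markers 5 were in the table, none at 0 in every library, with a sum of 12.1 to 59.2 CPM in WT and 150 to 169 CPM in CB2 KO. Mast cell and basophil markers (6 of 7 in the table) summed to 17.5 to 28.3 CPM in WT and 41.4 to 86.9 CPM in CB2 KO, and T cell markers (5 of 8) to 11.2 to 17.5 against 28.0 to 33.5 CPM. Epithelium markers (5 of 6) summed to 30.8 to 137 CPM in WT and 25.6 to 45.5 CPM in CB2 KO. The endothelium and stroma marker (1 of 6) was at 19.8 to 27.5 against 7.75 to 26.0 CPM. Sums of B cell, erythrocyte, and neutrophil and eosinophil markers overlapped too, at no more than 17.3 CPM. The part of these other cell types in the results below was not tested. In RNA from a sorted population, fewer cells of a type and less RNA per cell cannot be told apart.

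All 32 members passed the filter on low counts, and none passed the test between CB2 KO and WT. The test called 15 of the 14084 tested genes (0.107%), and a count of 0 among 32 is near that background. At an unadjusted p under 0.05 stood 3 of the 32 members, Ldha, Aldoa and Tpi1, against 8.6% of all tested genes. In these 3 genes every CB2 KO library lay below every WT library, a pattern found in 7.2% of all tested genes. No member had every CB2 KO library above every WT library, against 6.91% of all tested genes. All 3 are among the 16 members with a mean of at least 100 CPM. Among all tested genes that abundant, 13.5% had their CB2 KO libraries entirely lower.

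The members' log2 differences ran from -1.49 (Pfkfb4) to 0.59 (Eno2), both among the scarcest members, and from -0.25 to 0.15 for members of at least 100 CPM. Their median was -0.076, against -0.0003 over all tested genes. Values were negative for 21 members and positive for 11. Among the 16 members with at least 100 CPM, 12 were negative and the median was -0.067. Over all tested genes of that abundance 54.4% were negative and the median was -0.023. The 95% interval of the difference lay within 1.5-fold in either direction for all 16 of these abundant members, and within 1.2-fold for 6 of them. Without CB2 KO replicate 1, again none of the 32 passed the test, 20 were negative and the median was -0.068. For the 16 members under 100 CPM, only 2 had an interval within 1.5-fold. The replicates were tighter at high levels: the coefficient of variation within WT was 0.528 to 13.7% for the abundant members and 2.38 to 111% for the others.

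**Figure D1:**
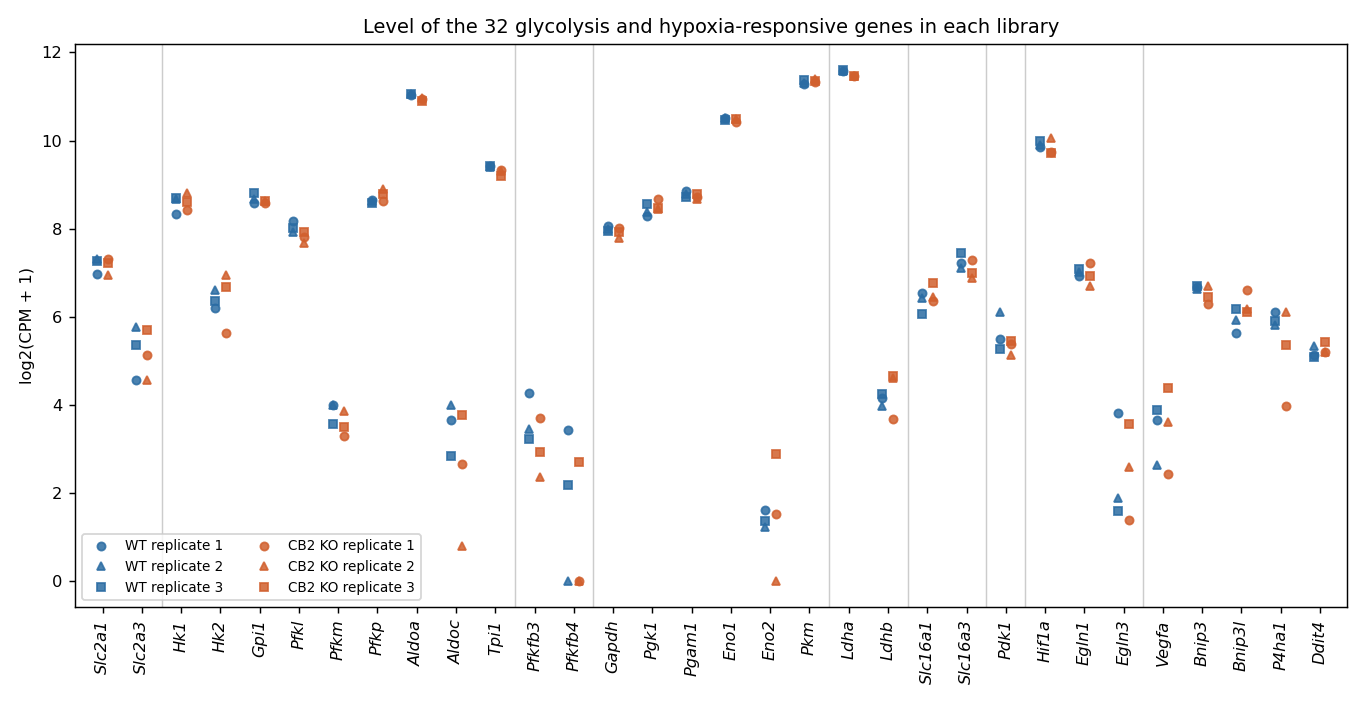
Level of each of the 32 genes in each library, as log2(CPM + 1) on the vertical axis, with genes ordered by role and grey lines between roles. Blue marks are the 3 WT libraries and orange marks the 3 CB2 KO libraries. The abundant enzymes have nearly coinciding marks, whereas Pfkfb4, Egln3 and Aldoc scatter widely within each group, and Eno2 does so within CB2 KO.

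**Figure D2:**
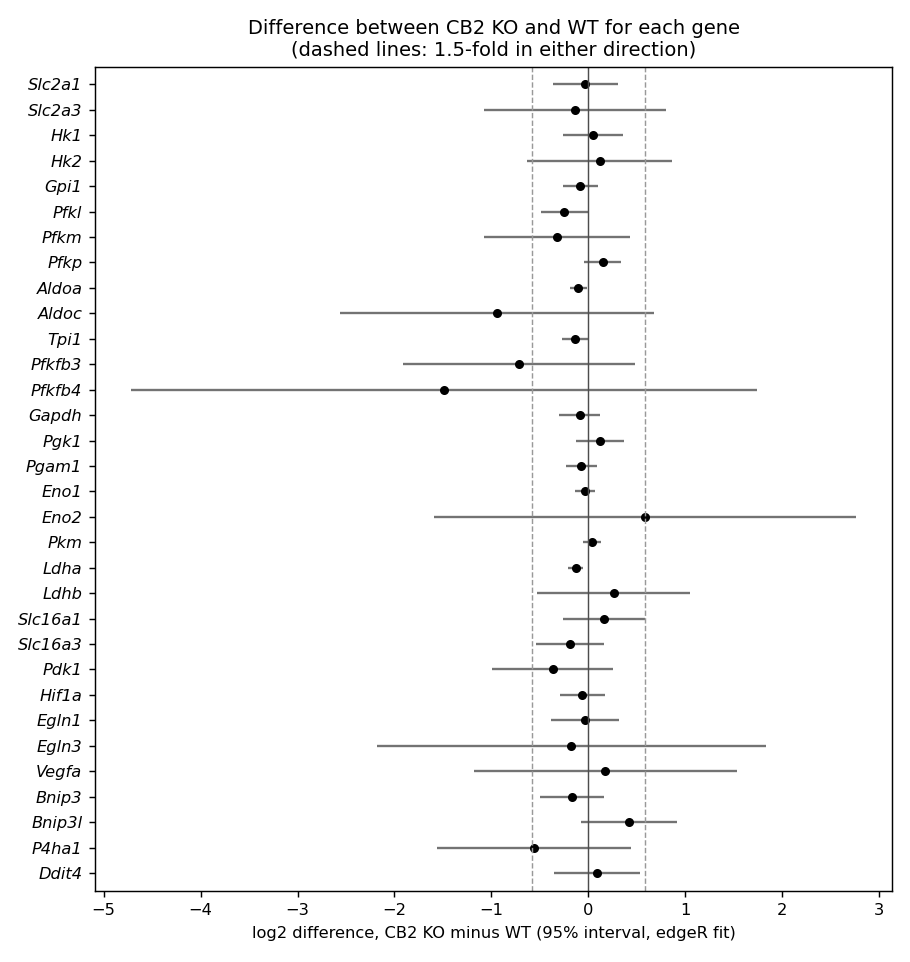
Log2 difference between CB2 KO and WT (horizontal axis, points) with its 95% interval (bars) for each of the 32 genes. Dashed lines mark a 1.5-fold change in either direction. The intervals of Ldha, Aldoa and Tpi1 lie wholly below 0, and that of Pfkl ends just above 0.

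Levels can be compared between genes only per length, here as CPM per kilobase of annotated exon. On that scale Ldha led the members, with 850 to 944 over the 6 libraries. Next came Aldoa at 658 to 728, Pkm at 496 to 536 and Eno1 at 253 to 272. These 4 ranges did not overlap one another. Tpi1 (213 to 249) and Pgam1 (205 to 235) overlapped, as did Hif1a (142 to 182) and Pgk1 (138 to 182), and Gpi1 (59.2 to 69.4) and Gapdh (53.1 to 64.1). Ldha, Aldoa and Pkm held ranks 30, 49 and 77 among 17980 genes of known length. At the other end, Eno2, Pfkfb4, Pfkfb3 and Egln3 had a mean of 0.474 to 2.22 CPM per kilobase. The order depends on the length used and on reads assigned elsewhere. With the length of the transcript that has the longest coding sequence, and with counts of near-identical copies added, Eno1 came first at 2186 CPM per kilobase, before Ldha at 1877, Aldoa at 1390 and Pkm at 1316.

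Those copies matter for the absolute levels. Glycolytic mRNAs have left many processed pseudogenes, intronless copies of their mRNA, across the mouse genome, and reads that match both places were shared out by the authors' expectation-maximization counting. Copies at other loci with at least 90% identity were found for 10 members, 200 copies in all. Not all of them are pseudogenes: some, among them Eno1b and Aldoart1, are annotated as protein-coding. Their counts are part of the levels with copies given above. Eno1b held 221456 counts in all, against 168321 for Eno1. Of the summed counts of gene and copies, 67.9% were assigned to copies for Eno1, mostly to Eno1b and Gm4735. The share was 58.5% for Pgk1, 36.5% for Gapdh with its 166 copies, 34.5% for Bnip3l, 28.1% for Pgam1, 19.2% for Pkm, 18.3% for Bnip3 and 13.4% for Ldha. It was 5.54% for Aldoa and 4.35% for Tpi1. The last 120 coding bases of Ldha and Pkm serve as examples of gene and copy. The most counted copy follows each gene, and capitals mark bases of the copy that differ from the gene. The sequences are GENCODE release M21 transcripts, 5′ to 3′.

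Ldha: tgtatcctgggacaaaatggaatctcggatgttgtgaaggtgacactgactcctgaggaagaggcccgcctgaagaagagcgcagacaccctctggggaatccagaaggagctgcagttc
Gm5452: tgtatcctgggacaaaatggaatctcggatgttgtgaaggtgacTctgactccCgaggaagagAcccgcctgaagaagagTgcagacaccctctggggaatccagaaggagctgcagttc
Pkm: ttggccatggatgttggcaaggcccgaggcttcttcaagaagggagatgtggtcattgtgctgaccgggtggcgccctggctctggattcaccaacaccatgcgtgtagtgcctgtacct
Gm6560: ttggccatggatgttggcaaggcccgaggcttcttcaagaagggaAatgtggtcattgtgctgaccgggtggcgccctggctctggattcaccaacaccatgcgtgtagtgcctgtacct

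Gm5452 differs from Ldha at 4 of these 120 bases and Gm6560 from Pkm at 1. The share assigned to copies was close in both groups. For Eno1 it was 67.5, 67.8 and 68.0% in WT and 67.9, 68.1 and 67.9% in CB2 KO. For Pgk1 it was 58.9, 59.1 and 58.0% in WT against 58.9, 58.0 and 58.1% in CB2 KO. Over the 10 families, exact two-sided permutation tests of the share gave p = 0.2 to 1, with Benjamini-Hochberg adjusted values of at least 0.833. The smallest p that 3 against 3 allows is 0.1.

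**Figure D3:**
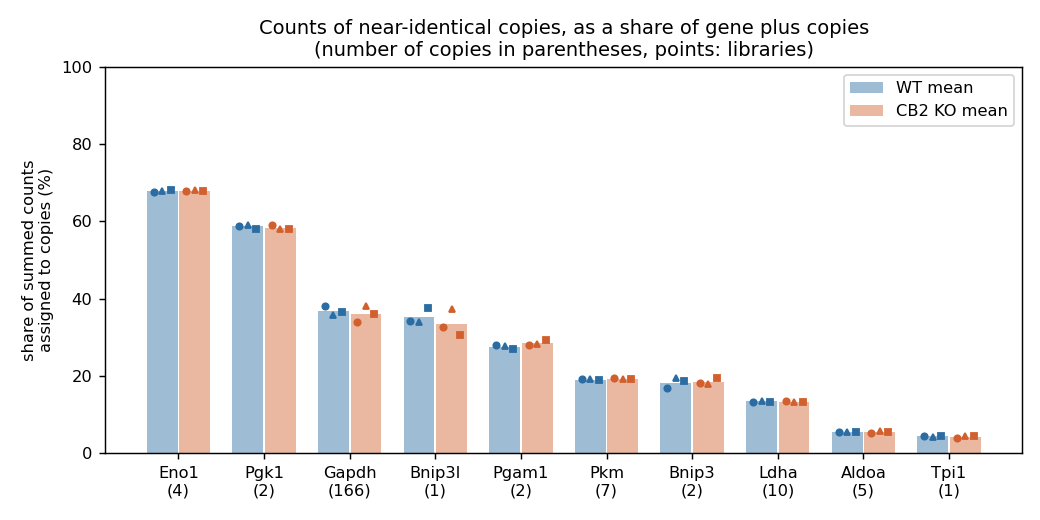
Share of the summed counts of a gene and its near-identical copies that was assigned to the copies (vertical axis, %), for the 10 genes with copies. Bars are group means and marks are single libraries. Eno1 and Pgk1 have over 50% of their counts in copies, and WT and CB2 KO bars are nearly level for every gene.

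Glucose enters through facilitative transporters. Slc2a1 (GLUT1), the widespread basal transporter, was at 125, 159 and 154 CPM in WT and 157, 123 and 149 CPM in CB2 KO. The groups overlapped, and the difference was -2.14% with a 95% interval of -22.4 to 23.5%. Slc2a3 (GLUT3), a high-affinity transporter, ran from 22.6 to 53.9 CPM in WT and from 22.9 to 50.8 CPM in CB2 KO. Per length, Slc2a1 made up 88.9% ± 3.04 of these transporters in WT and 89.4% ± 3.11 in CB2 KO (SD, n = 3 each).

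Hexokinases trap glucose as its 6-phosphate. Hk1, the constitutive form, was at 320, 407 and 414 CPM in WT and 345, 445 and 386 CPM in CB2 KO. Hk2, the form that growth signals and HIF-1 induce, was at 73.1, 97.2 and 81.6 CPM in WT and 48.8, 124 and 101 CPM in CB2 KO. CB2 KO replicate 1 was the lowest library for Hk2 and the other CB2 KO libraries were the highest ones. The log2 difference for Hk2 was 0.12 (95% interval -0.63 to 0.87) with all libraries. It was 0.43 without CB2 KO replicate 1 (adjusted p = 0.612, edgeR) and -0.195 without CB2 KO replicate 2, so its sign rests on that library. Leaving out WT replicates 1 and 2 in turn gave 0.02 and 0.24, and leaving out CB2 KO replicate 3 gave 0.05. Gpi1, which turns glucose 6-phosphate into fructose 6-phosphate, was at 382, 410 and 448 CPM in WT and 382, 397 and 392 CPM in CB2 KO.

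Phosphofructokinase commits sugar to glycolysis and has liver (Pfkl), muscle (Pfkm) and platelet (Pfkp) forms. Pfkl (chromosome 10, 77986947 to 78010083, minus strand, mm10) was at 288, 241 and 259 CPM in WT and 222, 203 and 242 CPM in CB2 KO. Only CB2 KO replicate 3 reached into the WT range. The log2 difference of -0.25 (SE 0.11) had an unadjusted p of 0.0505 and an adjusted p of 0.581 (edgeR). Pfkp (chromosome 13, 6579768 to 6648777, minus strand) was at 399, 396 and 385 CPM in WT and 394, 474 and 439 CPM in CB2 KO, a log2 difference of 0.15 (SE 0.08, adjusted p = 0.671). Only CB2 KO replicate 1 fell within the WT range. Pfkm was at 10.9 to 14.95 CPM in WT and 8.89 to 13.5 CPM in CB2 KO.

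As shares of phosphofructokinase mRNA per length, the groups were apart for Pfkp and Pfkl and overlapped for Pfkm, which was at 5.78, 6.37 and 4.62% in WT and 4.08, 5.79 and 4.29% in CB2 KO. The Pfkp share was 38.4, 42.2 and 40.6% in WT and 44.97, 50.6 and 45.4% in CB2 KO, a mean 6.63 percentage points higher. The Pfkl share was 55.8, 51.5 and 54.8% in WT and 51.0, 43.6 and 50.3% in CB2 KO, a mean difference of -5.76 points. Both gave p = 0.1 by an exact two-sided permutation test, the smallest this design allows, and 0.5 after Benjamini-Hochberg adjustment over 10 isoenzyme shares. Both shares are parts of the same whole, of which Pfkm is a small part, so they are not independent results. The shift kept its direction in each alternative run, between 4.81 and 7.65 points for Pfkp. Which form leads depends on length: with the transcript of the longest coding sequence, Pfkp made up 55.8% in WT and 62.3% in CB2 KO, and Pfkl 41.4% and 35.5%. Exons of Pfkp share 748 bases with Pitrm1 on the opposite strand, whose log2 difference was 0.30 (SE 0.18). Without a stated strand setting, reads of that stretch cannot be told apart.

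**Figure D4:**
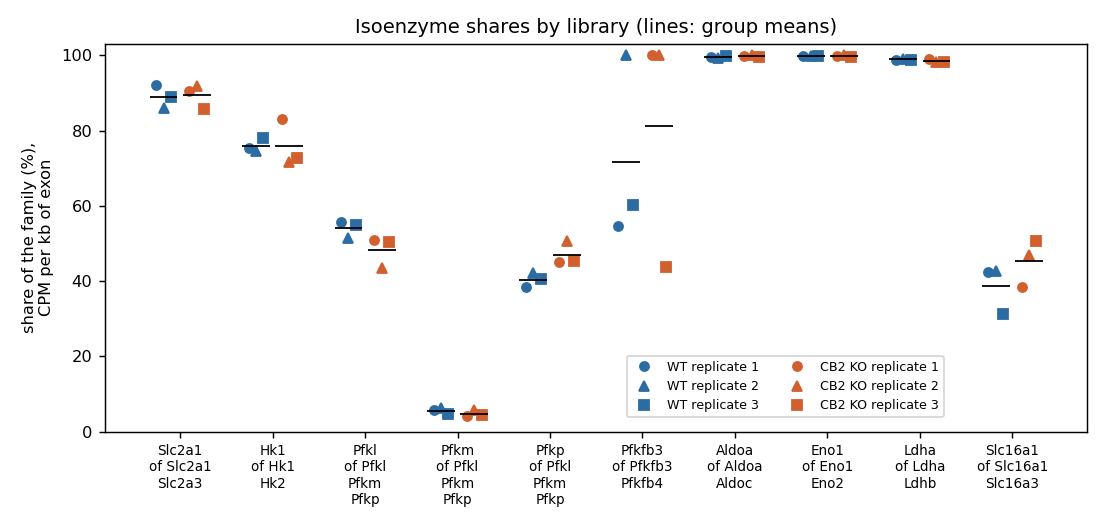
Share of each isoenzyme within its family per library (vertical axis, % of the family's CPM per kilobase of exon). Marks are libraries, blue for WT and orange for CB2 KO, and black lines are group means. Pfkp marks are higher and Pfkl marks lower in CB2 KO with no overlap between groups, whereas the groups overlap for Pfkm and for all other families.

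Pfkfb3 and Pfkfb4 make fructose 2,6-bisphosphate, the strongest activator of phosphofructokinase. Pfkfb3 was at 18.4, 9.90 and 8.38 CPM in WT and 12.02, 4.15 and 6.63 CPM in CB2 KO (log2 difference -0.72, 95% interval -1.92 to 0.48). Pfkfb4 was at 9.78, 0 and 3.57 CPM in WT and at 0, 0 and 5.52 CPM in CB2 KO. A count of 0 allows up to 0.140 to 0.174 CPM at these depths, counting error only. The replicates of both genes scattered widely, with a coefficient of variation of 44 to 52.9% for Pfkfb3, and the groups overlapped.

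Aldolase splits fructose 1,6-bisphosphate into triose phosphates, which triosephosphate isomerase interconverts. Aldoa (chromosome 7, 126795234 to 126800751, minus strand), the main lymphocyte form, was at 2087, 2120 and 2114 CPM in WT and 1957, 2009 and 1916 CPM in CB2 KO. The difference was -6.92% (95% interval -12.4 to -1.11%, adjusted p = 0.501 by edgeR). Tpi1 (chromosome 6, 124810586 to 124814296, minus strand) was at 686, 679 and 682 CPM in WT and 642, 635 and 586 CPM in CB2 KO. The difference was -8.95% (95% interval -16.9 to -0.23%, adjusted p = 0.578 by edgeR). Both groups were tight and did not overlap, and neither gene passed the test over all genes. Aldoc, the brain form, was at 11.6, 15.1 and 6.23 CPM in WT and 5.37, 0.755 and 12.6 CPM in CB2 KO. Aldoa held over 99% of the aldolase level per length in every library.

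The groups overlapped at every payoff step. Gapdh, which makes NADH and is often taken as a reference gene, was at 265, 255 and 247 CPM in WT and 260, 219 and 243 CPM in CB2 KO. Pgk1, the first step to return ATP, was at 310, 331 and 379 CPM in WT and 408, 346 and 351 CPM in CB2 KO. Pgam1, which shifts the phosphate group within the next intermediate, was at 465, 441 and 420 CPM in WT and 418, 406 and 440 CPM in CB2 KO. The log2 differences of these 3 genes were -0.09, 0.12 and -0.07.

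Eno1, the ubiquitous enolase, was at 1449, 1463 and 1412 CPM in WT and 1359, 1432 and 1429 CPM in CB2 KO, a difference of -2.45% (95% interval -9.03 to 4.61%). Eno2, the neuronal form, was at 2.10, 1.37 and 1.59 CPM in WT and 1.89, 0 and 6.45 CPM in CB2 KO. Pkm, pyruvate kinase of proliferating and muscle cells, was at 2479, 2535 and 2643 CPM in WT and 2567, 2681 and 2605 CPM in CB2 KO. Its difference was 2.58% with an interval of -3.87 to 9.47%, among the narrowest of the set. Pkm, Hk1, Pfkp and Pgk1 were the 4 members of at least 100 CPM with a positive value.

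Ldha (chromosome 7, 46841475 to 46855627, plus strand), the subunit that favours lactate formation, had the smallest p of the set. It was at 3050, 3077 and 3124 CPM in WT and 2812, 2823 and 2815 CPM in CB2 KO. The spread within CB2 KO was 0.197% of the mean, and the gap between the groups was larger than the spread of either. The log2 difference was -0.13 (SE 0.03), or -8.66% with an interval of -13.3 to -3.81%. Its unadjusted p was 0.00407 and its adjusted p 0.337 in edgeR's quasi-likelihood test. DESeq2 called Ldha, at an adjusted p of 0.00121 and a log2 difference of -0.12. DESeq2 called 409 of 18478 genes in all, against 15 of 14084 for edgeR. Over the 17 alternatives the adjusted p for Ldha ran from 0.00121 to 0.632, and the log2 difference from -0.15 to -0.11. With its copies added, Ldha was at -0.13 with an adjusted p of 0.319. Ldhb, the subunit that favours pyruvate, was at 16.8, 14.8 and 18.0 CPM in WT and 11.9, 23.4 and 24.4 CPM in CB2 KO, with overlapping groups.

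**Figure D5:**
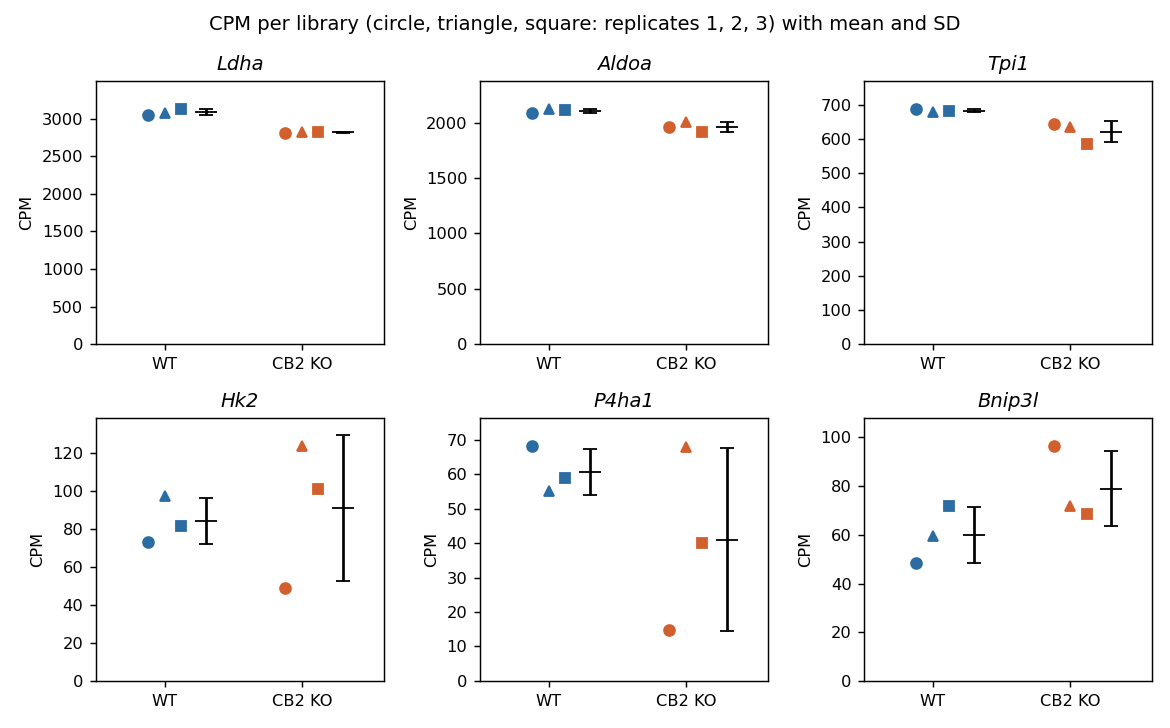
CPM of 6 genes in each library (circle, triangle and square for replicates 1 to 3), with the group mean and SD in black; each vertical axis starts at 0. Ldha, Aldoa and Tpi1 show small gaps between tight groups, whereas CB2 KO replicate 1 is the lowest library for Hk2 and P4ha1 and the highest for Bnip3l.

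Summed over the 17 members that encode glycolytic enzymes and lactate dehydrogenase, the level was 12300, 12498 and 12644 CPM in WT and 11842, 12231 and 11999 CPM in CB2 KO. These genes held 1.2 to 1.25% of all counts, and 1.70 to 1.75% with their copies. The difference of the means was -3.66%, and every CB2 KO library lay below every WT library (exact two-sided permutation test, p = 0.1, the smallest possible). With library size alone as the scale, the difference was -2.03% and the groups overlapped (exact p = 0.2). With the 197 copies of these genes included, the difference was -2.96% (exact p = 0.1). The copies alone differed by -1.23% (exact p = 0.3). The most abundant genes weigh most in the sum of the 17 members. Its mean went from 12480 (WT) to 12020 CPM (CB2 KO). Over the same groups mean Ldha went from 3084 to 2817 CPM, Aldoa from 2107 to 1961 and Pkm from 2553 to 2618. Log2 differences were positive for 3 of 9 preparatory genes, 3 of 6 payoff genes and 1 of 2 lactate dehydrogenase genes. The sum without Ldha and Aldoa was not tested, nor were sums of other gene sets.

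Lactate leaves through monocarboxylate transporters. Slc16a3 (MCT4), the export form that hypoxia induces, was at 149, 136 and 174 CPM in WT and 157, 117 and 127 CPM in CB2 KO. Slc16a1 (MCT1), which carries lactate both ways, was at 91.8, 84.8 and 65.4 CPM in WT and 81.4, 86.02 and 108 CPM in CB2 KO. Per length the Slc16a1 share was 38.8% ± 6.62 in WT and 45.3% ± 6.23 in CB2 KO (SD, n = 3 each; exact permutation p = 0.3). Pdk1, the kinase that shuts off pyruvate dehydrogenase, was at 44.1, 68.2 and 37.5 CPM in WT and 41.0, 33.9 and 42.8 CPM in CB2 KO. The groups overlapped for all 3 genes.

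Hif1a was the most abundant of the regulators, at 923, 955 and 1018 CPM in WT and 859, 1071 and 838 CPM in CB2 KO. CB2 KO replicate 2 had the highest level of all 6 libraries and the other CB2 KO libraries the lowest. The difference was -4.23% with an interval of -18.6 to 12.6%. Egln1, the main prolyl hydroxylase in normal oxygen, was at 121 to 135 CPM in WT and 104 to 148 CPM in CB2 KO. Egln3, a hydroxylase that hypoxia induces, stayed between 1.64 and 13.2 CPM. An antisense gene shares 330 exon bases with Hif1a but had a mean of 193 counts, against 18627 for Hif1a.

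Of the remaining hypoxia-responsive members, Bnip3l (NIX), a mitophagy receptor, was at 48.5, 59.5 and 71.7 CPM in WT and 96.5, 71.9 and 68.5 CPM in CB2 KO. Its log2 difference of 0.42 (SE 0.21) had an adjusted p of 0.638 (edgeR). CB2 KO replicate 1 gave the highest value, and the difference was 0.25 without it and 0.28 without WT replicate 1. Its relative Bnip3, also a mitophagy receptor, was at 101, 97.8 and 102.6 CPM in WT and 77.3, 103.4 and 85.98 CPM in CB2 KO. P4ha1, a collagen prolyl hydroxylase subunit, was at 68.2, 55.2 and 58.8 CPM in WT and 14.9, 67.9 and 40.2 CPM in CB2 KO. In the other 5 libraries P4ha1 lay between 40.2 and 68.2 CPM, and its log2 difference of -0.56 became -0.14 without CB2 KO replicate 1 and -1.19 without CB2 KO replicate 2. Ddit4 (REDD1), an inhibitor of mTORC1, was at 34.05, 39.2 and 33.2 CPM in WT and 35.9, 35.95 and 42.3 CPM in CB2 KO. Vegfa, the angiogenic growth factor, was at 5.27 to 13.8 CPM in WT and 4.37 to 19.8 CPM in CB2 KO. Of these 5 genes, 3 had positive and 2 negative differences, and the groups overlapped in all.

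Promoters were examined because HIF-1 binds the core ACGTG, which reads CACGT on the other strand. Only these letters were searched for, and no other form of the core. In the 250 bases before the start, 18 of the 30 members with an entry held the core on either strand (60.0%). Among 9343 tested genes with an entry the share was 25.9%, and it was 18.5% among all 27025 genes with a RefSeq entry. Members had 1.47 windows per gene and a median GC content of 62.3%, against 1.27 and 59.8% for tested genes. Counted per window, 47.7% of member windows and 22.3% of tested genes' windows held it. The core lies inside the E-box CACGTG, which other factors such as MYC and USF bind, and which 6 of 30 members (20.0%) and 10.2% of tested genes held. The list was built in part from genes known to answer low oxygen, so a higher share may follow from that choice. The difference in shares was not tested. A match is a description of letters, not a site. The windows below belong to the 3 members whose groups did not overlap, and to Pgk1, whose groups did. They are RefSeq windows of GRCm38.p6, 5′ to 3′ in the gene's direction, and capitals mark each core with any E-box around it.

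Ldha, chr7:46845554-46845803, plus strand: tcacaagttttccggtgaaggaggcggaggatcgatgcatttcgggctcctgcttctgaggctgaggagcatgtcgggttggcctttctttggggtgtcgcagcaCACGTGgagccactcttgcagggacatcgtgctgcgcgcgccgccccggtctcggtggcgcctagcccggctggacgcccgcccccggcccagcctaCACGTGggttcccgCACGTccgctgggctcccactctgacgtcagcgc
Aldoa, chr7:126799179-126799428, minus strand: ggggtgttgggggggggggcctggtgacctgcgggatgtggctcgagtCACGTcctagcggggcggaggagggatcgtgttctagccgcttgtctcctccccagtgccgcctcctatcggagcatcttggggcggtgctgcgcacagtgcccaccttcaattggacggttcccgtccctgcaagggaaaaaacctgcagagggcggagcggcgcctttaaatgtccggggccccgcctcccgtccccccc
Tpi1, chr6:124814159-124814408, minus strand: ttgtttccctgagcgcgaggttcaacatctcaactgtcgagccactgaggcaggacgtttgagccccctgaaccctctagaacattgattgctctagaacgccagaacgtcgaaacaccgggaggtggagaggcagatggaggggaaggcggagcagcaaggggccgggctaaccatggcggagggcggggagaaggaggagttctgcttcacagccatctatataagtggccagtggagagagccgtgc
Pgk1, chrX:106186850-106187099, plus strand: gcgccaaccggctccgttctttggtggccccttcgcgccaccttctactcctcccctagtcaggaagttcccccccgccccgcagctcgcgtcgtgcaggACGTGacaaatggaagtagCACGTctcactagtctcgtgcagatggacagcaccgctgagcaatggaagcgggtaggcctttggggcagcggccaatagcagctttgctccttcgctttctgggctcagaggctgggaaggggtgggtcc

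This Ldha window holds 3 cores, 2 of them in E-boxes. The Pgk1 window holds 2 and this Aldoa window 1, whereas these letters are not in the Tpi1 window. For Ldha and Aldoa, which have more than 1 window, the first with the most cores is shown. The other Ldha window and 1 of the 3 Aldoa windows hold none.

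Around the members, 114 further tested genes of 6 lists were examined, and none passed the edgeR test. They came from glycolysis and glucose phosphate metabolism, pyruvate entry into mitochondria, the pentose phosphate and serine branches, the HIF pathway, hypoxia response and regulators of glycolysis. Their log2 differences were positive for 68 and negative for 46, with a median of 0.06. Unadjusted p (edgeR) was under 0.05 for 4 of the 114, against 8.6% of all tested genes. A count of 0 past the test is near the 0.107% over all tested genes. Every CB2 KO library was lower for 5 and higher for 3 of the 114, against 7.2% and 6.91% of all tested genes.

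Among 19 other genes of glycolysis and glucose phosphate metabolism, 13 were positive and the median was 0.17. Slc2a6, a lysosomal hexose transporter, had the smallest p of these, at 22.3, 24.0 and 19.8 CPM in WT and 21.9, 47.6 and 38.8 CPM in CB2 KO. Its log2 difference was 0.71 (SE 0.33, adjusted p = 0.613, edgeR). Pfkfb1, Pgm1 and Pygb followed, at -2.08, 0.32 and 0.17. Pyruvate entry was split, with 7 of 13 genes positive. Pdk3, another pyruvate dehydrogenase kinase, was at 82.7, 108 and 87.9 CPM in WT and 43.6, 82.2 and 65.5 CPM in CB2 KO. Pdp2, the phosphatase that opposes these kinases, was at 4.29 to 6.74 CPM in WT and 1.04 to 3.55 CPM in CB2 KO. The groups of both did not overlap, for Pdk3 only narrowly (82.2 against 82.7 CPM). The adjusted p-values of Pdk3 and Pdp2 were 0.595 and 0.551 (edgeR). Pdha1 and Mpc1, a subunit of the dehydrogenase and of the pyruvate carrier, were at -0.17 and 0.15.

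In the pentose phosphate and serine branches, 8 of 15 genes were positive and no gene had groups apart. Phgdh, which opens serine synthesis from a glycolytic intermediate, was at 228, 235 and 252 CPM in WT and 238, 192 and 195 CPM in CB2 KO. Shmt1, Prps2 and Psat1 had log2 differences of 0.45, 0.56 and 0.09.

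Of 16 other HIF pathway genes, 7 were positive. Egln2, another prolyl hydroxylase, was at 57.6, 58.2 and 51.2 CPM in WT and 77.9, 65.6 and 63.6 CPM in CB2 KO, with every CB2 KO library higher (log2 difference 0.31, SE 0.16, adjusted p = 0.638, edgeR). Elob, part of the ubiquitin ligase that removes HIF-1α, was at 234 to 256 CPM in WT and 209 to 232 CPM in CB2 KO. Hif1an, which hydroxylates HIF-1α at an asparagine, and Epas1, which encodes HIF-2α, had log2 differences of 0.58 and 0.67 with overlapping groups.

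Of 33 other hypoxia-responsive genes, 26 were positive, with a median log2 difference of 0.22. Bnip3l, Bnip3, P4ha1, Ddit4 and Vegfa, the 5 members listed as other hypoxia targets, had a median of 0.09. Those 5 leave out members of other roles that hypoxia or HIF-1 induces, such as Slc16a3 (-0.19), Egln3 (-0.17) and Hk2 (0.12). The groups were apart in 3 of the 33, 2 higher and 1 lower in CB2 KO, which is no more than over all tested genes (6.91% higher and 7.2% lower). Hmox1, heme oxygenase, was at 81.4, 91.6 and 111 CPM in WT and 158, 116 and 113 CPM in CB2 KO (adjusted p = 0.562, edgeR). Plod1, a collagen lysyl hydroxylase, was at 22.8, 21.9 and 27.1 CPM in WT and 6.56, 11.8 and 19.6 CPM in CB2 KO (adjusted p = 0.550, edgeR). Mif, a secreted cytokine, was at 212.5, 198 and 198 CPM in WT and 223, 212.8 and 229 CPM in CB2 KO, apart by less than 1 CPM. Kdm3a, a histone demethylase, and Car9, carbonic anhydrase 9, had log2 differences of 0.46 and 1.25, the latter from 0.988 to 9.44 CPM over all libraries.

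Among 21 regulators of glycolysis 10 were positive. Arrdc4, which limits glucose uptake and responds to glucose itself, was at 10.1, 7.51 and 5.89 CPM in WT and 33.5, 26.3 and 8.95 CPM in CB2 KO. Its log2 difference of 1.57 (SE 0.53) had an adjusted p of 0.475 (edgeR), the smallest in these lists, and CB2 KO replicate 3 lay within the WT range. Akt2, a kinase that promotes glucose uptake, was at 71.6 to 88.3 CPM in WT and 53.7 to 65.5 CPM in CB2 KO. Rptor and Prkab2, subunits of mTORC1 and of AMP-activated kinase, had log2 differences of 0.47 and 2.44, the latter from under 10 CPM in every library.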

How the data were processed

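RNA was measured in 3 WT and 3 CB2 KO libraries, grouped by their titles. The authors deposited estimated counts per gene, made by expectation maximization in Partek per the file headers. They also deposited a normalized signal, a rescaled form of (count + 1) with 1 factor for each library. CASAVA 1.8.2, STAR, Partek and mm10 are named in the submitters' processing notes, and a strand setting is not stated there. Members and lists were chosen with earlier results of these data known.

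Estimated counts were rounded and tested with edgeR 4.0.16 (R 4.3.3) on the whole table: TMM, filterByExpr (14084 genes left, 4394 removed), glmQLFit with robust=TRUE and legacy=FALSE, and a threshold of 0.05 on Benjamini-Hochberg adjusted p. Positive differences mean higher in CB2 KO. CPM uses TMM-scaled library sizes. Intervals are at 95%, from the fit. Single values were compared by exact permutation tests. DESeq2 1.42.0 and limma 3.58.1 served as alternatives. The scripts were tested on simulated data. No 2 libraries were alike within sampling noise (lowest chi-square over its degrees of freedom 30.98).

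Lengths, coordinates and transcripts are from GENCODE release M21 (mm10), which 17980 of 18478 genes matched. Copies were found with blastn 2.17.0: at least 90% identity over 200 bases and 50% of the copy's transcript, at another locus. Promoters are RefSeq's (GRCm38.p6), of which 30 of 32 members had an entry. Values in every library are given for up to 8 members with the smallest p in each direction and the most abundant member of each step. Of each further list, up to 4 genes with the smallest p are named, many with a range or a log2 difference alone. Hk2, Pfkm, Slc2a3, Vegfa, Egln1, Egln3, Pfkfb4, Pitrm1 and Mif were added after their values were seen. One sequence is not reported here.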

Additional observations from a re-analysis of the deposited data

How the results depend on the processing

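Of 17 alternatives (other scaling factors, filters, tools, the authors' signal, a replicate block, copies added, and leaving out each library), DESeq2 called 1 member (Ldha), and the others called 0. DESeq2 called 409 of the 18478 genes in its fit. The members' median log2 difference ran from -0.097 to -0.052, and from -0.097 to -0.068 over the fits that leave out 1 library. Those fits called 3 to 8 genes of the whole table, against 15. No gene of the further lists was called under any of the 17 alternatives.

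The labels do not say whether the replicate numbers pair the libraries. Deviations of same-numbered libraries from their group means correlated at 0.07, 0.03 and 0.02. With 3 libraries per group these values cannot show or exclude pairing. With the replicate number as a block, 3 genes of the whole table and 0 members were called, the members' median was -0.075, and the adjusted p for Ldha was 0.573.

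Of 25 members whose differences were followed through the alternatives, 8 values of 424 changed sign, the cause was not tested, and none had been called. Slc2a1 was at 0.04 without WT replicate 2, 0.006 without WT replicate 3 and 0.071 without CB2 KO replicate 2, and ran from -0.139 to 0.071 over all single libraries left out. Hk1 was at -0.067 without WT replicate 1 and -0.056 without CB2 KO replicate 2, with a range of -0.067 to 0.137. Eno2 was at -1.56 with limma-voom, -1.04 with limma on the authors' signal and -0.877 without CB2 KO replicate 3, with a range of -0.877 to 1.23 over libraries left out. Of the other 7 members, 5 (Slc2a3, Hk2, Egln1, Egln3 and Vegfa) also changed sign when 1 library was left out. Among the isoenzyme shares, that of Slc2a1 differed by -1.07, -0.131 and -0.76 percentage points without WT replicate 2, CB2 KO replicate 1 and CB2 KO replicate 2 (range -1.07 to 2.19). That of Hk1 differed by 0.9, 2.02 and 1.4 points without WT replicate 3, CB2 KO replicate 2 and CB2 KO replicate 3, with a range of -3.76 to 2.02. That of Eno1 differed by 0.054 points without CB2 KO replicate 3 (range -0.203 to 0.054). The enzymes' summed level differed by -4.62 to -2.83% over the fits that leave out 1 library.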
